A study of Homo sapiens with 6 samples.

Results

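Fatty acid elongation was described here by 8 genes, the elongases ELOVL1, ELOVL5, ELOVL6 and ELOVL7 and the enzymes of the later steps of the cycle, HSD17B12, HACD2, HACD3 and TECR. They were chosen by name, with earlier results of these data known, and each had 1 row among the 14456 genes of the deposited table. The table holds polyA RNA sequencing of C4-2 cells, an established human prostate cancer line that descends from LNCaP and grows without testicular androgen. One group was treated with IPI-9119, an inhibitor of fatty acid synthase (FASN), at 100 nM for 6 days, and the other received 0.1% DMSO. Each group held 3 libraries, and all cells grew in RPMI medium with 10% fetal bovine serum. Whether these were separate cultures is not stated in the labels, so the tests gauge variation among libraries, part or all of which may be technical.

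Fatty acid synthase makes palmitate in the cytosol. The elongation cycle at the endoplasmic reticulum then lengthens palmitate, and fatty acids taken up from outside, with further units from malonyl-CoA. An ELOVL enzyme condenses the acyl-CoA with malonyl-CoA and sets which chains are lengthened. HSD17B12 reduces the product, HACD2 or HACD3 removes water from it, and TECR reduces it again, so that the later enzymes serve all elongases. Several elongase genes are known targets of the lipogenic transcription factor SREBP-1, and ELOVL5 and ELOVL7 have been studied in prostate cancer as androgen-responsive genes.

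The elongase of palmitate, ELOVL6, stood far apart from the rest, while the means of the other 7 genes differed by less than 2-fold. ELOVL6 was 29.5-fold higher with IPI-9119. HACD2, HACD3, ELOVL1, HSD17B12 and ELOVL5 were 1.22-fold to 1.69-fold higher, ELOVL7 fell by 19.1%, and TECR, which closes the cycle, did not pass the test. With limma and a Benjamini-Hochberg adjusted p under 0.05 over all 14437 genes tested, 6 of the 8 members were higher, 1 was lower and 1 was not past the threshold. The treatment moved much of the transcriptome: 62.8% of all genes tested were called, 31.3% as higher and 31.4% as lower. The median log2 fold change of the members was 0.57, beside 0.0017 for all genes tested.

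Read totals recovered from the table ran from 19090749 to 20422882 in the IPI-9119 libraries and from 21952620 to 23448035 in the DMSO libraries. All 9 luminal prostate markers listed, KLK3 and KLK2 among them, had reads. Of these, 1 was higher, FOLH1 (log2 fold change 0.43), and 8 were lower, beside 31.3% higher and 31.4% lower among all genes tested. Summed normalised counts of the 9 were 148189 to 153192 with IPI-9119 and 254776 to 265298 with DMSO. KLK3 alone had a mean of 63576 with IPI-9119 and 122882 with DMSO. None of the 3 basal and 4 leukocyte markers had a row among the genes analysed. Of 3 endothelial markers VWF alone had a row, at 39.0 to 60.5 normalised counts with IPI-9119 and 44.3 to 48.7 with DMSO. Of 4 fibroblast markers COL1A1 and COL3A1 had rows, summing to 52.8 to 100.3 with IPI-9119 and 67.9 to 88.2 with DMSO. The part of the luminal shift in the elongation values was not tested. In bulk RNA, fewer cells of a kind and less RNA per cell cannot be told apart. FASN itself, the drug's target, had 9365, 13284 and 13511 normalised counts with IPI-9119, against 13182, 15941 and 15107 with DMSO (limma log2 fold change -0.31, SE 0.15, adjusted p 0.112). Without IPI-9119 replicate 3 FASN was called lower (limma -0.40, adjusted p 0.0225), in a fit that keeps replicate 1, the lowest library at 9365. FASN was not past the threshold without replicate 1, or when any other single library was left out. Its value turned to 0.84 (adjusted p 2.10e-08) once each library was corrected for exonic length and GC content, as described further on.

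ELOVL6 converts palmitoyl-CoA to stearoyl-CoA and so acts directly on the product of the inhibited enzyme. The gene (ENSG00000170522) lies on chromosome 4 from 110045846 to 110199199, minus strand, GRCh38, with 7297 nt of merged exons. It had 723, 745 and 803 normalised counts in the IPI-9119 libraries, against 31.3, 23.6 and 22.0 in the DMSO libraries. Every treated library lay far above every control library. Behind these values stood 686, 683 and 730 reads with IPI-9119 and 35, 25 and 24 reads with DMSO, so the control level is the least precise of the 8. Means were 757 ± 41.2 with IPI-9119 and 25.6 ± 4.95 with DMSO (SD, n = 3 each). The log2 fold change on the log2(value + 1) scale was 4.85 (SE 0.15, 95% confidence interval 4.53 to 5.16, limma adjusted p 7.16e-12). It ranked 8 from the top of the 14437 genes tested.

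ELOVL7, which lengthens saturated long chains, was the only one of the 8 called lower. The gene (ENSG00000164181, chromosome 5, 60751791 to 60844389, minus strand) had 6942, 7189 and 7212 normalised counts with IPI-9119, against 8856, 8603 and 8919 with DMSO. The groups did not overlap. Means were 7115 ± 149.8 with IPI-9119 and 8793 ± 167 with DMSO (SD, n = 3 each), a log2 fold change of -0.31 (SE 0.043, limma adjusted p 2.49e-05). After the correction for length and GC content it was -0.59.

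ELOVL5, which lengthens polyunsaturated acyl-CoAs, had by far the most reads. The gene (ENSG00000012660, chromosome 6, 53267398 to 53349179, minus strand) had 67948, 67202 and 66091 normalised counts with IPI-9119, against 55875, 53946 and 55611.5 with DMSO. All treated libraries were above all controls. The log2 fold change was 0.28 (SE 0.040, limma adjusted p 2.60e-05), and this call was lost after the correction for length and GC content (0.027, adjusted p 0.577).

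ELOVL1 lengthens saturated and monounsaturated very long chains, which are used in sphingolipids. The gene (ENSG00000066322, chromosome 1, 43363397 to 43368074, minus strand) had 2772, 2659 and 2665 normalised counts with IPI-9119, against 1811, 1644 and 1738 with DMSO. The treated libraries were again all above the controls. Its mean was 2699 ± 63.3 with IPI-9119 and 1731 ± 83.8 with DMSO (SD, n = 3 each), 1.56-fold higher (log2 fold change 0.64, SE 0.053, limma adjusted p 1.41e-07).

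The other elongation genes listed for context, ELOVL2, ELOVL3, ELOVL4, HACD1, HACD4 and TECRL, had 2 members with rows, and they went opposite ways; the other 4 were not analysed here. ELOVL2, which acts on polyunsaturated chains beyond those preferred by ELOVL5, had 339, 306 and 311 normalised counts with IPI-9119, against 682, 645 and 646 with DMSO (log2 fold change -1.04, SE 0.081, limma adjusted p 7.18e-08). ELOVL4, known for ultra-long chains in retina and skin, had 19, 17 and 29 reads with IPI-9119, against 5, 10 and 1 with DMSO. Its log2 fold change of 2.32 (SE 0.55, limma adjusted p 0.00226) rests on these few reads, and was 1.66 without DMSO replicate 3 and 1.31 with a pseudocount of 8. With means of 23.5 with IPI-9119 and 4.94 with DMSO, ELOVL4 passed the minimum mean of 10 only through the treated libraries. Among the other elongases ELOVL1, ELOVL5 and ELOVL6 were thus higher and ELOVL2 and ELOVL7 lower.

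**Figure D1:**
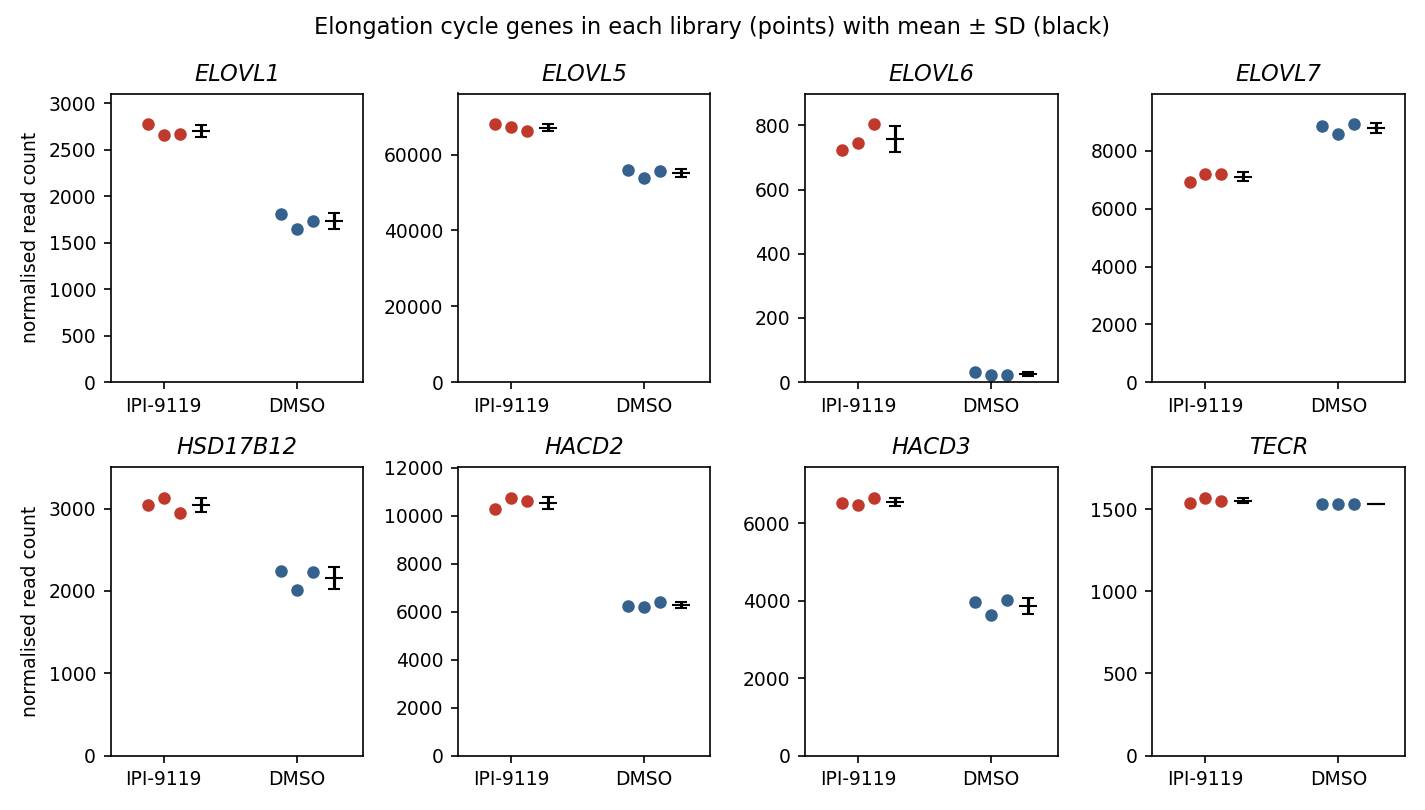
Normalised read count of each of the 8 elongation genes in the 3 IPI-9119 libraries (red points) and the 3 DMSO libraries (blue points), with mean ± SD in black and each axis starting at 0. ELOVL6 sits at 723 to 803 with IPI-9119 and at 22.0 to 31.3 with DMSO, ELOVL7 is lower in all treated libraries, and TECR is nearly level.

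The promoters of 3 elongases are shown because their genes went different ways, ELOVL6 steeply up, ELOVL5 slightly up and ELOVL7 down. Each is the window from 250 bases before to 50 bases after the RefSeq start (GRCh38.p14), read 5′ to 3′ on the gene's own strand. Capitals mark matches, on either strand, to the E-box, whose letters are CACGTG, to the CCAAT box, spelled as its name, or to the GC box, written GGGCGG. No matches overlapped in these 3 windows.
ELOVL6, chr4:110198566-110198865, minus strand: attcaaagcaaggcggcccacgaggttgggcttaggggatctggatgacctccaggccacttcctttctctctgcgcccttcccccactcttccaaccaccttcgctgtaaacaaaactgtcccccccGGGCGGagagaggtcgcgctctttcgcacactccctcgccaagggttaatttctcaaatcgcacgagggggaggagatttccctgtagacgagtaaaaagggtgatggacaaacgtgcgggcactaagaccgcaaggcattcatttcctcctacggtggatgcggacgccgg
ELOVL5, chr6:53348901-53349200, minus strand: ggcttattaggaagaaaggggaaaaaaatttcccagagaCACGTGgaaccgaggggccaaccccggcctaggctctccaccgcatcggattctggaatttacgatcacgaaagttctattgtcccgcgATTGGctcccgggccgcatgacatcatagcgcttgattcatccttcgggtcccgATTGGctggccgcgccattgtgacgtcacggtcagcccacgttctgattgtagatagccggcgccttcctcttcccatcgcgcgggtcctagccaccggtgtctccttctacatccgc
ELOVL7, chr5:60844220-60844519, minus strand: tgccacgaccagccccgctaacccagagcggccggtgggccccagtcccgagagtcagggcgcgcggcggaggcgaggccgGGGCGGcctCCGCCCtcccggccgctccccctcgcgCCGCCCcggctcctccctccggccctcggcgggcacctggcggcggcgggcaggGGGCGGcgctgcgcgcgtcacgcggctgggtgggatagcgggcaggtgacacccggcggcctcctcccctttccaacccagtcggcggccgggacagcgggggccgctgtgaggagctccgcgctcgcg

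These windows differ in composition. The ELOVL7 window was 80.7% G and C, that of ELOVL6 57.3% and that of ELOVL5 57.3%. ELOVL6 held 1 GC box, starting 122 bases before the start, and ELOVL7 held GC boxes starting 169, 160, 133 and 79 bases before it. ELOVL5 held the E-box, 211 bases before its start, and CCAAT boxes on the opposite strand 122 and 68 bases before it. Of the 8 members 7 matched the RefSeq table, with 10 windows, and HSD17B12 did not. A sterol regulatory element, searched on both strands in the 1 spelling TCACNCCAC, was in none of the 10 windows and in 1.13% of the 35116 windows of all genes. With so rare a string its absence from 10 windows says little, and sequence outside the windows was not searched. The E-box was in 7.26% of all windows and in that of ELOVL5 among the members. A CCAAT box was in 34.6% of all windows and in 5 of the 10 member windows, from 4 members. A GC box was in 45.0% of all windows and in 9 of the 10 member windows, from 6 members. The 2 windows of TECR overlap for most of their length. Such matches are letters in a window, not binding sites.

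The second step of the cycle has 1 gene, HSD17B12, whose product reduces the ketone made by the elongase. The gene (ENSG00000149084, chromosome 11, 43680558 to 43856617, plus strand) had 3048, 3130.4 and 2953 normalised counts with IPI-9119, against 2249, 2009 and 2228 with DMSO. All treated libraries exceeded all controls. Means were 3044 ± 88.8 with IPI-9119 and 2162 ± 133 with DMSO (SD, n = 3 each), 1.41-fold higher (log2 fold change 0.49, SE 0.055, limma adjusted p 2.91e-06). The antisense genes AC087521.2 and AC087521.4 share 12.1% and 3.69% of its exonic bases, and AC068205.2 on the same strand shares 6.25%. Whether the authors' counting used strand is not stated, so reads of the antisense partners cannot be told apart. Strand would not separate reads of AC068205.2.

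The dehydratases of the third step rose together, and by nearly the same factor in the values as deposited. HACD2 (ENSG00000206527, chromosome 3, 123490820 to 123585185, minus strand) had 10272, 10743 and 10594 normalised counts with IPI-9119, against 6239, 6180.3 and 6404 with DMSO. HACD3 (ENSG00000074696, chromosome 15, 65530418 to 65578352, plus strand) had 6516, 6472 and 6649 with IPI-9119, against 3963, 3632 and 4012 with DMSO. Neither gene's groups overlapped. HACD2 was 1.68-fold higher (log2 fold change 0.75, 95% confidence interval 0.66 to 0.84, limma adjusted p 3.11e-09). HACD3 was 1.69-fold higher (0.76, interval 0.65 to 0.87, limma adjusted p 1.09e-08). Both intervals overlap almost wholly. After the correction for length and GC content they overlapped only in part, HACD2 at 0.55 (0.46 to 0.64) and HACD3 at 0.68 (0.58 to 0.79). The difference between the genes was not tested.

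TECR, the enoyl-CoA reductase of the last step, was the member that did not pass. The gene (ENSG00000099797, chromosome 19, 14517085 to 14565980, plus strand) had 1538, 1567 and 1546 normalised counts with IPI-9119, against 1532, 1530.5 and 1529 with DMSO. The treated libraries all lay above the controls, with a mean of 1551 ± 15.1 with IPI-9119 and 1531 ± 1.40 with DMSO (SD, n = 3 each), 1.31% higher. The log2 fold change was 0.019 with a 95% confidence interval of -0.091 to 0.13 (limma adjusted p 0.767), so a change of the size seen for HACD2 lies outside the interval. DNAJB1 on the opposite strand shares 3.57% of TECR's exonic bases, and reads from its processed pseudogenes TECRP1 and TECRP2 could be split from it in the counting. Of the 8 members 7 had all treated libraries above all controls, TECR included, and 1 had them all below. Such a lack of overlap was found for 34.0% of all genes upward and 33.9% downward.

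**Figure D2:**
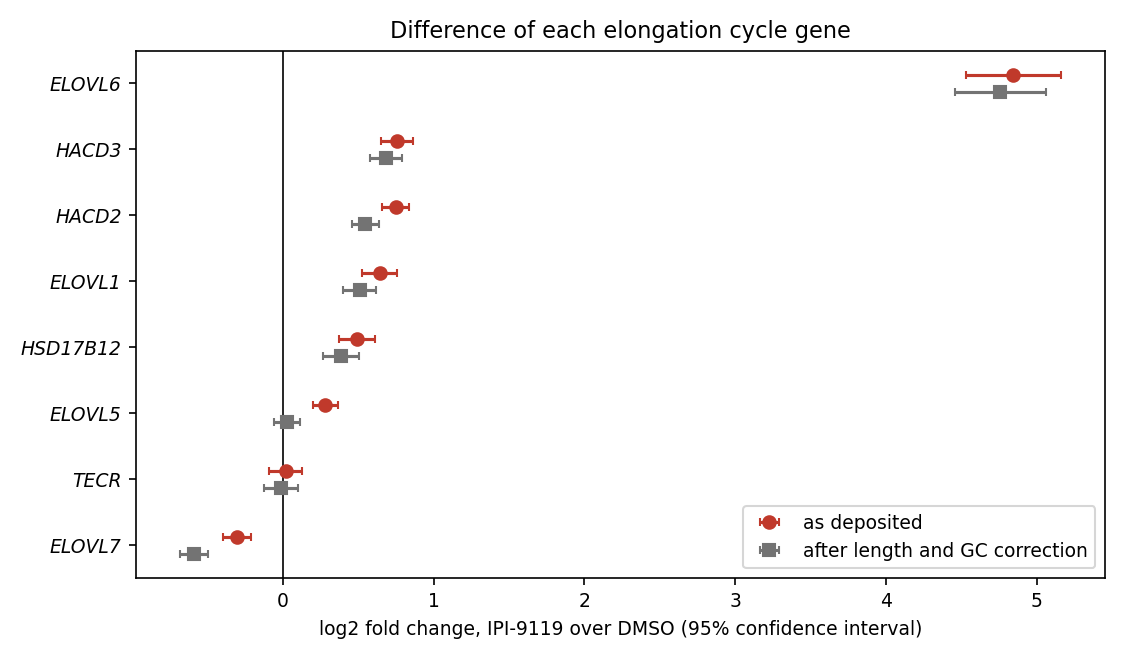
Log2 fold change of IPI-9119 over DMSO for each elongation gene, with its 95% confidence interval, from the values as deposited (red circles) and after the correction for length and GC content (grey squares). ELOVL6 stands at 4.85, the other rises lie between 0.28 and 0.76, TECR spans 0 and ELOVL7 lies below it.

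Levels of different genes were compared per kilobase of merged exons. ELOVL5 led in both groups, with 17593 ± 245 normalised counts per kilobase with IPI-9119 and 14462 ± 274 with DMSO (SD, n = 3 each). With IPI-9119 it was followed by HACD2, ELOVL7, ELOVL1, HACD3, HSD17B12, TECR and ELOVL6 on that scale, and no neighbours in that order overlapped. With DMSO, ELOVL7 stood before HACD2, and HSD17B12 and TECR overlapped. HACD2 and ELOVL7 thus changed places, HACD2 standing at 1969 ± 44.9 with IPI-9119 and 1173 ± 21.7 with DMSO, and ELOVL7 at 1555 ± 32.7 with IPI-9119 and 1921 ± 36.5 with DMSO. ELOVL6 was last in both, at 103.7 ± 5.64 with IPI-9119 and 3.51 ± 0.678 with DMSO. For scale, ELOVL2 stood at 79.8 ± 4.46 per kilobase with IPI-9119 and 164.5 ± 5.27 with DMSO, so that ELOVL6 was above ELOVL2 with IPI-9119 and below it with DMSO. The order depends on the length used. Per kilobase of the longest annotated transcript, an alternative chosen after seeing the data, HACD3 stood at 2028 ± 28.6 with IPI-9119, next after HACD2 and before ELOVL7 at 1708 ± 36.0 and ELOVL1 at 1661 ± 39.0, whose libraries then overlapped. With DMSO HACD3 stood before ELOVL1 and TECR before HSD17B12. ELOVL5 stayed first and ELOVL6 last in both groups, and HACD2 and ELOVL7 changed places as before.

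**Figure D3:**
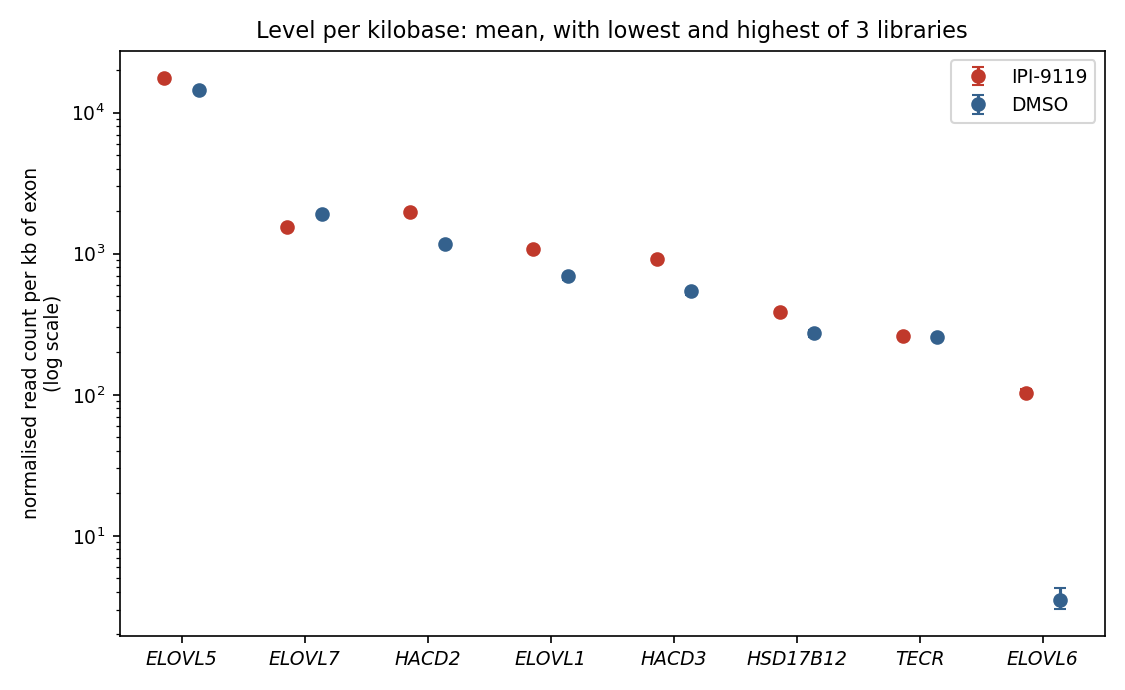
Level of each elongation gene in normalised read counts per kilobase of exon on a log axis, with IPI-9119 in red and DMSO in blue. Points are means and bars run from the lowest to the highest of 3 libraries. ELOVL5 lies highest and ELOVL6 lowest in both groups, and HACD2 and ELOVL7 change places.

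ELOVL5 made up most of the elongase RNA in both groups, and ELOVL6 held the smallest share among the 4 elongase members. Of the summed per-kilobase level of the 4 elongase members, ELOVL5 held 86.5% ± 0.221 with IPI-9119 and 84.7% ± 0.0856 with DMSO (SD, n = 3 each). ELOVL7 held 7.65% ± 0.239 with IPI-9119 and 11.3% ± 0.0691 with DMSO, and ELOVL1 held 5.30% ± 0.0858 with IPI-9119 and 4.04% ± 0.122 with DMSO. These groups did not overlap. ELOVL6 held 0.482%, 0.501% and 0.548% in the IPI-9119 libraries, against 0.0248%, 0.0194% and 0.0175% in the DMSO libraries. The summed level was 20328 ± 231 with IPI-9119 and 17078 ± 341 with DMSO. Shares and sum rest on values not corrected for length and GC content. ELOVL5 makes up most of the sum, and its rise was lost after that correction (log2 fold change 0.027, limma adjusted p 0.577). A share of RNA says nothing of enzyme amount or activity.

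Fold changes in these libraries moved with gene length. The median log2 fold change was 0.14 in the tenth of tested genes with the shortest exonic length and -0.23 in the tenth with the longest. ELOVL6, HACD3 and HSD17B12, with 7297, 7097 and 7838 nt, lie where the median gene was at -0.077. Each library was also corrected for length and GC content with a spline fit. The correction lowered all 8 members, from a shift of -0.030 for TECR to -0.28 for ELOVL7. GC content of the members ran from 36.4% in ELOVL7 to 55.4% in ELOVL1, whose shift was -0.13. FASN, with 65.3% GC and 9364 nt, was raised by 1.14. Length and GC content were corrected together, and their separate parts in these shifts were not tested. ELOVL6 was then at 4.76, HACD3 at 0.68, HACD2 at 0.55, ELOVL1 at 0.51 and HSD17B12 at 0.39, each still past the threshold. After correction 5 members were higher, 1 lower and 2 not past, while 64.8% of all genes were called, 30.7% higher and 34.1% lower. The part of length and composition in the uncorrected values was not tested further.

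**Figure D4:**
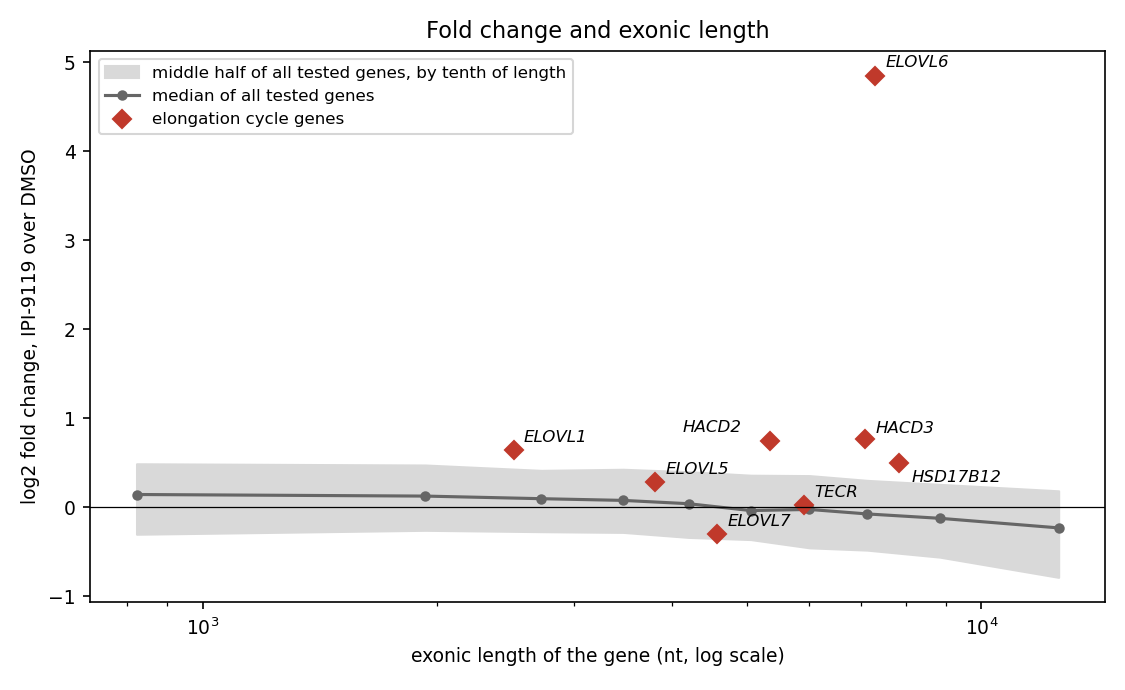
Log2 fold change of IPI-9119 over DMSO against exonic length on a log axis. The grey line and band give the median and quartiles of all tested genes in 10 bins of length, medians running from 0.14 to -0.23, and red diamonds are the 8 elongation genes, with ELOVL6 far above the band.

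Elongation takes its substrates from neighbouring pathways and hands its products to others, and these genes were counted in lists of known function. Each count stands beside 31.3% higher and 31.4% lower among all genes tested. Palmitate and malonyl-CoA supply had 5 higher genes, 1 lower and 4 below the threshold among 10, with a median log2 fold change of 0.28. The acetyl-CoA synthetase ACSS2 (1.99) and the malic enzyme ME1 (1.27) rose, and the malonyl-CoA decarboxylase MLYCD fell (-0.71), a call lost after the length and GC correction (0.13). The thioesterase OLAH rose (4.74), with 85, 68 and 79 reads with IPI-9119 and 0, 4 and 6 with DMSO, and was at 3.92 without DMSO replicate 1 and 3.07 with a pseudocount of 8. Of 10 desaturases and their electron donors 7 were higher, 1 lower and 2 not past (median 0.65). SCD, which desaturates stearoyl-CoA made by ELOVL6, rose by 3.07, and FADS1 and FADS2, which alternate with ELOVL5 in polyunsaturated synthesis, rose by 1.82 and 1.80 (FADS2 by 2.64 after correction). CYB5R3 fell by 0.20 and turned to 0.24 after correction. Its limma adjusted p was 0.0581 without IPI-9119 replicate 1, 0.0604 without DMSO replicate 1 and 0.0612 with plain moderation. Among the 13 acyl-CoA synthetases and binding proteins with rows, 8 were higher, 2 lower and 3 not past (median 0.28). ACSL5 (3.36, on 19 to 21 reads with IPI-9119 and 0 to 5 with DMSO, 4.02 without DMSO replicate 1 and 1.62 with a pseudocount of 8), ACSL4 (3.11) and SLC27A2 (2.58) rose, and ACBD3 fell (-0.37). OLAH and ACSL5 had DMSO means of 3.09 and 1.80, and passed the minimum mean of 10 only through the IPI-9119 libraries.

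Ceramide synthases, which join acyl-CoAs of various lengths to sphingoid bases, had 4 rises and 0 falls among 5 genes, 1 missing the threshold (median 0.61). CERS4 rose by 0.78, CERS6 by 0.72 and CERS2, which prefers the chains made by ELOVL1, by 0.61. Peroxisomal breakdown of very long chains had 3 rises and 3 falls among 8 genes, 2 missing the threshold (median -0.090). ACOX3, an oxidase of branched chains, rose by 0.52 and the transporter gene ABCD3 by 0.32. Lipogenic transcription control had 5 rises and 3 falls among 12 genes, 4 missing the threshold (median -0.076). Among all genes tested 31.3% were called higher and 31.4% lower, so the peroxisomal and transcription control counts lie near those shares. INSIG1, whose product retains SREBP proteins in the endoplasmic reticulum, rose by 2.92, PPARG by 1.02 and INSIG2 by 0.56, and the LXR gene NR1H2 fell (-0.39). SREBF1, which encodes SREBP-1, was at -0.13 (adjusted p 0.124) and at 0.72 after correction (limma adjusted p 3.88e-10), and is named here after its values were seen. After the length and GC correction supply had 7 rises and 0 falls (median 0.79) and transcription control 8 rises and 2 falls (median 0.31). Of all genes, 30.7% were then called higher and 34.1% lower. The same correction moved ABCD3 to 0.20, ACBD3 to -0.63, INSIG2 to 0.27 and NR1H2 to -0.24.

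**Figure D5:**
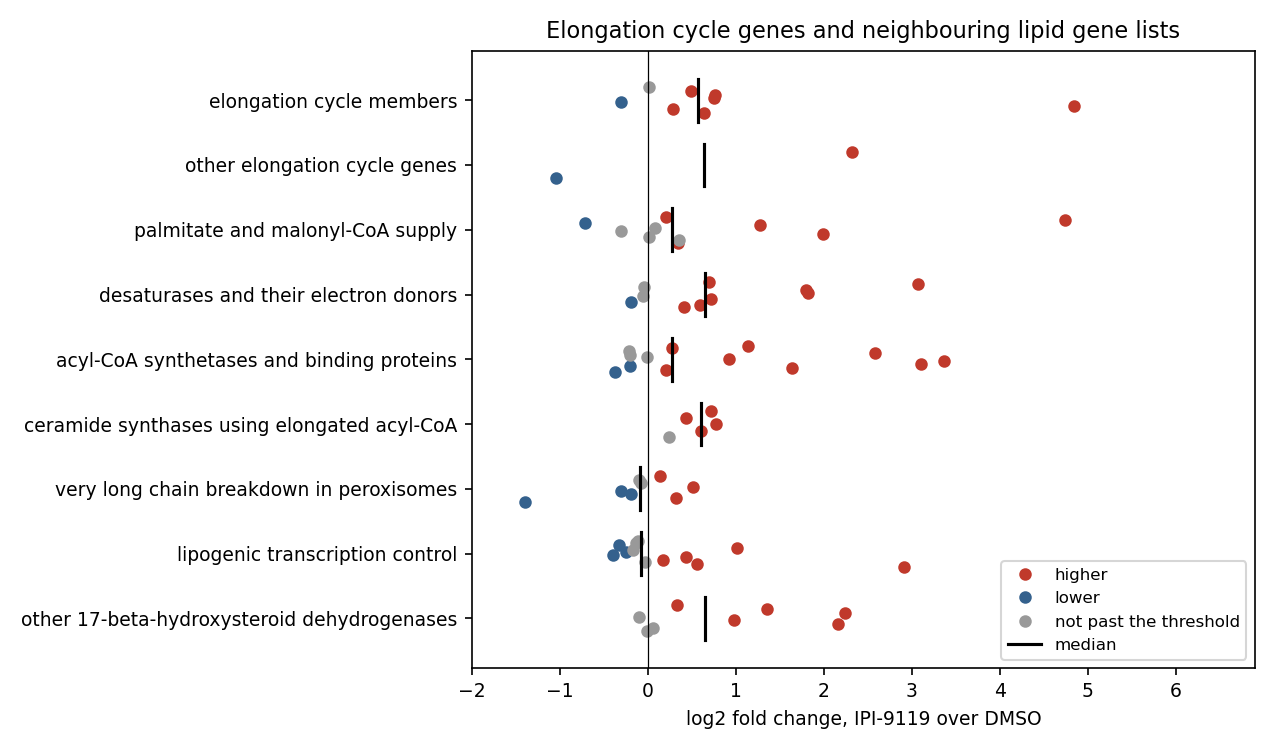
Log2 fold change of IPI-9119 over DMSO for each tested gene of the elongation members (top) and of 8 neighbouring lists, coloured by call, with the list median as a black bar. The member at 4.85 is ELOVL6, and the median of the 8 members is 0.57.

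The genes most like ELOVL6 over the 6 libraries, among 10246 with a symbol and a mean of at least 100, were BIRC3, ID3 and TXNIP. Likeness was the root-mean-square difference of log2(value + 1) after centring each gene on its own mean, which was 0.42 for BIRC3, 0.49 for ID3 and 0.53 for TXNIP. This measure follows mostly the difference between the groups, so that similar fold changes were set by the choice. ID3 and TXNIP were 15.5-fold and 14.7-fold higher, against 29.5-fold for ELOVL6. BIRC3, an inhibitor of apoptosis, had a log2 fold change of 4.88, ID3, an inhibitor of helix-loop-helix factors, one of 3.94, and TXNIP, a thioredoxin-binding protein, one of 3.88. For ELOVL7 they were SPON2, DOLPP1 and WDR18, with differences of 0.018, 0.020 and 0.020 and log2 fold changes of -0.31, -0.33 and -0.33. After the length and GC correction SPON2 turned to 0.42 and WDR18 stood at -0.20, beside -0.59 for ELOVL7.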

How the data were processed

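The authors deposited a normalised signal: the numbers in each library are whole reads times 1 constant, which fits division by a size factor. Per the submitters' processing notes, the build was GRCh38 and the tools included STAR 2.5.2b, Trimmomatic 0.36, DESeq2, featureCounts and Subread 1.5.2, listed without roles; annotation release and strand setting are not given in the sources used here. That constant returned the reads, 100% of values being whole to 0.01 read. Between replicates chi-square over its degrees of freedom was 2.31 to 9.76, above sampling noise, and no libraries were merged. It was 7.55 and 9.76 for the pairs with IPI-9119 replicate 1, and 2.31 for IPI-9119 replicates 2 and 3. DMSO pairs gave 4.27 to 5.34.

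limma 3.58.1 (R 4.3.3; trend and robust moderation, two-sided) was run on log2(value + 1), which understates changes of low genes, for genes averaging at least 10; this dropped 19 genes and no member. Positions and exonic lengths came from GENCODE 29 (GRCh38), GC content from each gene's longest transcript, and 99.6% of tested genes had both. For the length and GC correction, a spline in both (4 degrees of freedom apiece, with their interaction) was fitted per library to the deviations from gene means and subtracted. Alternatives were TMM and quantile scaling, no filter, a minimum mean of 50, pseudocounts of 0.5 and 8, blocking on replicate number, plain moderation, edgeR 4.0.16 and DESeq2 1.42.0 on recovered reads, and leaving out each library. The fits were also run on simulated counts in which few genes were set to change, up and down alike. Most genes were called in the real data, a setting that this simulation did not cover.

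Named genes were the members, FASN, the 3 called genes of each list with the largest change (plus the largest the other way) and the 3 genes most like ELOVL6 and ELOVL7; 1 gene under this rule is not reported here. Members and lists were chosen with earlier results of these data known.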

Additional observations from a re-analysis of the deposited data

How the results depend on the processing

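Over 18 alternatives for each of the 8 members, 140 of 144 log2 fold changes kept their direction and side of the threshold. The exceptions came with the length and GC correction, alone or with the replicate block: ELOVL5 was at 0.027 (adjusted p 0.577, with the block 0.532), and TECR, not past the threshold in any alternative, turned to -0.011 (adjusted p 0.862, with the block 0.857). The cause was not tested. ELOVL6 ran from 4.52 (pseudocount 8) to 4.99 (without DMSO replicate 1), ELOVL7 from -0.59 to -0.29. Members called stayed at 6 higher and 1 lower in every alternative without that correction. edgeR called 4479 genes higher and 4602 lower, DESeq2 4238 higher and 4222 lower, and limma 4522 higher and 4539 lower. Whether replicate numbers pair the libraries was not settled, and the main fit did not block on them. Deviations of same-numbered libraries correlated at 0.43, 0.26 and -0.029 for replicates 1, 2 and 3. IPI-9119 replicate 3 correlated best with DMSO replicate 2 (0.34). The replicate block gave 4797 genes higher and 4799 lower and changed no call of a member; FASN, not past the threshold without it, was then called lower (-0.31, adjusted p 2.71e-05). Per kilobase of the longest transcript in place of merged exons, shares with IPI-9119 and DMSO were 6.57% and 5.05% for ELOVL1, 86.2% and 84.9% for ELOVL5 and 6.76% and 10.0% for ELOVL7, and ELOVL6 held 0.465% with IPI-9119. Depth limits the control level of ELOVL6, at 24 to 35 reads a library.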

Other observations

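HSD17B12 carries the name of the 17-beta-hydroxysteroid dehydrogenases, most of which act on steroids or other substrates. Of 8 other genes of that name with rows, 5 were higher, 0 lower and 3 not past the threshold (median log2 fold change 0.66, limma). Among all genes tested 31.3% were higher and 31.4% lower. HSD17B7, which also acts in cholesterol synthesis, was at 1043 ± 55.8 normalised counts with IPI-9119 and 408 ± 16.2 with DMSO (SD, n = 3 each), a log2 fold change of 1.35. HSD17B11, a lipid droplet protein, had 484 ± 27.8 with IPI-9119 and 107.9 ± 9.53 with DMSO (2.16). HSD17B6, which acts on androgen metabolites, had 52, 77 and 72 reads with IPI-9119 and 26, 12 and 12 with DMSO (2.24). HSD17B4, the peroxisomal multifunctional enzyme, was at -0.10 (limma adjusted p 0.0566) and is named after its values were seen. Corrected for length and GC content, HSD17B4 was called lower (-0.12, limma adjusted p 0.0475). The 8 genes then held 5 rises and 1 fall, beside 30.7% higher and 34.1% lower among all genes.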
